A study of Mus musculus with 6 samples.

Results

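Small nucleolar RNAs (snoRNAs) and the related RNAs of the Cajal body (scaRNAs) were followed here as one set of genes in tdTomato-positive cells sorted from the embryonic mouse cortex. The set took every listed gene whose symbol is Snord, Snora or Scarna followed by a number, which gave 167 entries out of 57132 listed genes. Of these, 115 were C/D box snoRNAs (Snord), 42 were H/ACA box snoRNAs (Snora) and 10 were Cajal body RNAs (Scarna). The rule that picks the entries uses names and no measured value, although the set was proposed with earlier results of these data known. The 167 entries lie at 157 loci, because some loci carry a pair of overlapping annotation entries, and they come to 141 distinct RNAs once entries that share a locus or a sequence are counted together.

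The Dnmt1 KO group consisted of Sst-Cre/tdTomato embryos that also carried Dnmt1 loxP2 alleles, and the control group of Sst-Cre/tdTomato embryos without them. Cre, expressed from the Sst locus, switches on tdTomato in the somatostatin lineage of both groups and, in the KO, removes a part of Dnmt1, the maintenance DNA methyltransferase. The groups were taken from the sample titles and the Dnmt1 loxP2 alleles from the study's description, since the genotype label of the KO samples reads as in the controls. All embryos were at E14.5, and total RNA came from 50000 sorted cells pooled per genotype over several embryos. Each group had 3 libraries, and nothing in the sources shows that they came from separate embryos, so that p-values measure the spread between libraries.

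A snoRNA is a short stable RNA that is mostly cut out of an intron of a host gene and works in a complex with proteins. C/D box snoRNAs, named after conserved boxes near their ends, pair with ribosomal RNA and direct methylation of the ribose by fibrillarin. H/ACA box snoRNAs fold into hairpins followed by an ACA triplet and direct the change of uridine to pseudouridine by dyskerin. scaRNAs carry either or both kinds of box and guide the same modifications on the small nuclear RNAs of the spliceosome. A few snoRNAs, U3 and U8 among them, do not modify but are needed for the cleavage of the ribosomal RNA precursor.

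The boxes show the classes apart in the sequences themselves. The RNAs printed here are those on which the comparisons within 1 host gene turn, with the single entry of the highest level per length and a Cajal body RNA. The exact C box core TGATGA stood within the first 15 nucleotides of 67 of 115 C/D entries, against 1 of 115 windows of the same length lying directly downstream. CTGA, the D box, stood in the last 12 nucleotides of 102 of 115 C/D entries, against 9 of 115 downstream windows. ACA stood in the last 8 nucleotides of 40 of 42 H/ACA entries, against 2 of 42 windows. TGAG, which holds the core of the Cajal body signal, occurred anywhere in 9 of 10 Cajal body entries and in 5 of 10 of their windows, but also in 97 of 115 C/D entries, so that these 4 letters do not tell the classes apart. Only the RNA's own strand was searched. Capitals mark TGATGA and CTGA in C/D members, ACA in H/ACA members and TGAG in Scarna8, and the letters were read from the GRCm39 genome.
Snora75 (H/ACA, in Ncl, chr1:86278891-86279023, minus strand): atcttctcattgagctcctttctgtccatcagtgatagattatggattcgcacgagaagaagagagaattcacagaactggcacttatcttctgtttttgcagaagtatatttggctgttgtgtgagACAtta
Snord82 (C/D, in Ncl, chr1:86283983-86284052, minus strand): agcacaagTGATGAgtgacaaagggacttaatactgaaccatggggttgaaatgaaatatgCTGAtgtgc
Snora33 (H/ACA, in Rps12, chr10:23661245-23661373, minus strand): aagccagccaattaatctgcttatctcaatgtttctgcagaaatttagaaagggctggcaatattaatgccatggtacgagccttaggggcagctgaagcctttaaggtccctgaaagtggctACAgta
Snord100 (C/D, in Rps12, chr10:23661648-23661721, minus strand): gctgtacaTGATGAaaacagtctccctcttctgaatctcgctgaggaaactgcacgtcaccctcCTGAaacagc
Snord14c (C/D, in Hspa8, chr9:40714879-40714964, plus strand): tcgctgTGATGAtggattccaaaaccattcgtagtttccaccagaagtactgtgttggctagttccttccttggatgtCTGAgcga
Snord14d (C/D, in Hspa8, chr9:40715291-40715376, plus strand): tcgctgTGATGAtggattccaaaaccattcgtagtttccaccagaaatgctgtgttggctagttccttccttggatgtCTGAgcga
Snord14e (C/D, in Hspa8, chr9:40716044-40716133, plus strand): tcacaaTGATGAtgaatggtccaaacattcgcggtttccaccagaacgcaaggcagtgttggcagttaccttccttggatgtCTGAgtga
Snord22 (C/D, in Snhg1, chr19:8703230-8703355, plus strand): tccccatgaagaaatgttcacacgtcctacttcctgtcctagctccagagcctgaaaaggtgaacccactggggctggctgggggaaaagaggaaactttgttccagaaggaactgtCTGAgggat
Scarna8 (Cajal body, in Haus6, chr4:86504690-86504820, minus strand): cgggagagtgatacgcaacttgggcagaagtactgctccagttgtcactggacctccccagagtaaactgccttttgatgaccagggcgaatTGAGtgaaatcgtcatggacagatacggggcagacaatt

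By annotation, 165 of the 167 entries lie inside a host gene on the same strand, 104 in protein coding genes and 61 in long noncoding RNA genes such as the Snhg (small nucleolar RNA host gene) family. Of all entries, 66 lie in an intron of every transcript of their host and 41 overlap an exon of a long noncoding RNA. Of those in coding genes, 18 overlap an exon of a transcript typed as protein coding. Another 40 overlap only exons of transcripts of other types, such as retained introns and nonsense-mediated decay transcripts. Of the printed members, Snord82 and Scarna8 are intronic in every transcript, Snord22 overlaps exons of Snhg1, a noncoding gene, and the others overlap only transcripts annotated as retained introns. C/D entries are 60 to 238 nucleotides long (median 87), H/ACA entries 121 to 205 (median 132.5) and Cajal body entries 70 to 414 (median 139.5).

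Values are the deposited normalized counts, which are read counts divided by a size factor per library. The 6 libraries held 7154043 to 10089981 recovered reads, and a count of 0 allows up to 3 reads, a value of 2.22 to 3.70 normalized counts, for counting error only. Dnmt1, the targeted gene, had 2411, 2243 and 2255 normalized counts in KO libraries, against 3025, 2539 and 2741 in control libraries (log2 fold change -0.26, SE 0.07, limma adjusted p = 0.0218), in counts over the whole gene that are not restricted to the deleted part. Of lists of cell type markers, 6 of 7 genes of the Sst lineage were higher in KO (0 lower), while 5 of 7 radial glia genes (1 higher) and 5 of 6 genes of dividing cells (0 higher) were lower. Over all tested genes, 11.6% were lower and 7.64% higher at the same limma threshold, an adjusted p under 0.05. The summed level of the dividing cell genes was 2567 to 2607 in KO and 3456 to 3831 in control libraries, that of the radial glia genes 5796 to 5952 in KO and 7941 to 8579 in control libraries, and that of the Sst lineage genes 15725 to 16549 in KO and 12086 to 13171 in control libraries. Of the markers of other cells, 1 of 3 intermediate progenitor, 3 of 7 excitatory neuron, 1 of 4 blood and 1 of 3 mesenchymal genes were lower and 1 excitatory neuron gene was higher, while none of 3 vessel genes and of 2 tested microglial genes passed. Their sums were 687 to 751 in KO and 836 to 886 in control libraries for intermediate progenitors, 4265 to 4463 in KO and 4217 to 4541 in control for excitatory neurons, 295 to 376 in KO and 374 to 412 in control for blood, 529 to 588 in KO and 587 to 701 in control for mesenchyme, 178 to 182 in KO and 159 to 171 in control for vessels, and 39.2 to 54.2 in KO and 24.6 to 42.3 in control for microglia. These shifts went with the changes described next, and their part in them was not tested. In such bulk samples fewer cells of a type and less RNA per cell cannot be told apart. Control replicate 1 stood apart from the other libraries on the second principal component, which held 13.6% of the variance.

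snoRNAs and scaRNAs took up a smaller share of the reads in Dnmt1 KO cells than in control cells, in each class and in every library. All 167 entries together held 0.262%, 0.293% and 0.297% of reads in KO libraries, against 0.514%, 0.615% and 0.587% in control libraries. The C/D entries held 0.184% ± 0.011 in KO and 0.390% ± 0.030 in control libraries (SD, n = 3 each). The H/ACA entries held 0.0442% ± 0.0026 in KO and 0.108% ± 0.018 in control libraries. The Cajal body entries held 0.0560% ± 0.0063 in KO and 0.0746% ± 0.0057 in control libraries. No KO library reached the lowest control library in any class. The KO to control ratio of these shares was 0.473 for C/D, 0.410 for H/ACA and 0.751 for Cajal body entries. With the deposited size factors the ratios were 0.395, 0.342 and 0.627, and the share of all other short noncoding genes also differed, at 19.8% ± 0.17 of reads in KO and 31.6% ± 1.48 in control libraries.

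Gene by gene, 103 of the 167 entries had a mean of at least 10 normalized counts and were tested, and 82 of them were lower in KO at an adjusted p under 0.05 (limma, Benjamini-Hochberg over all 14126 tested genes). None was higher, and none was higher at an unadjusted p under 0.05, in limma, edgeR or DESeq2. Among all tested genes 11.6% were lower and 7.64% higher at the same threshold. The groups did not overlap, with KO below control, for 88 of the 103 entries, against 18.1% of all tested genes. By class, 37 of 56 tested C/D entries, 38 of 39 H/ACA entries and 7 of 8 Cajal body entries were lower. The median log2 fold change was -1.26 for C/D, -1.71 for H/ACA and -0.74 for Cajal body entries, against 0.02 over all tested genes. The 56 tested C/D entries come to 48 distinct RNAs, and 11 of the 56 are entries of U3. All but a pseudogene entry of U3 lay between -1.35 and -1.24, around the C/D median. The filter bears on these counts, because 12 of the 103 tested entries averaged under 10 in KO and passed through the control libraries, while none passed through the KO libraries alone. Of the 82 lower entries, 75 averaged at least 10 in both groups. Without the filter, 139 of the 146 entries with any read had a fold change below 0, and the class medians were -1.06, -1.71 and -0.74.

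**Figure D1:**
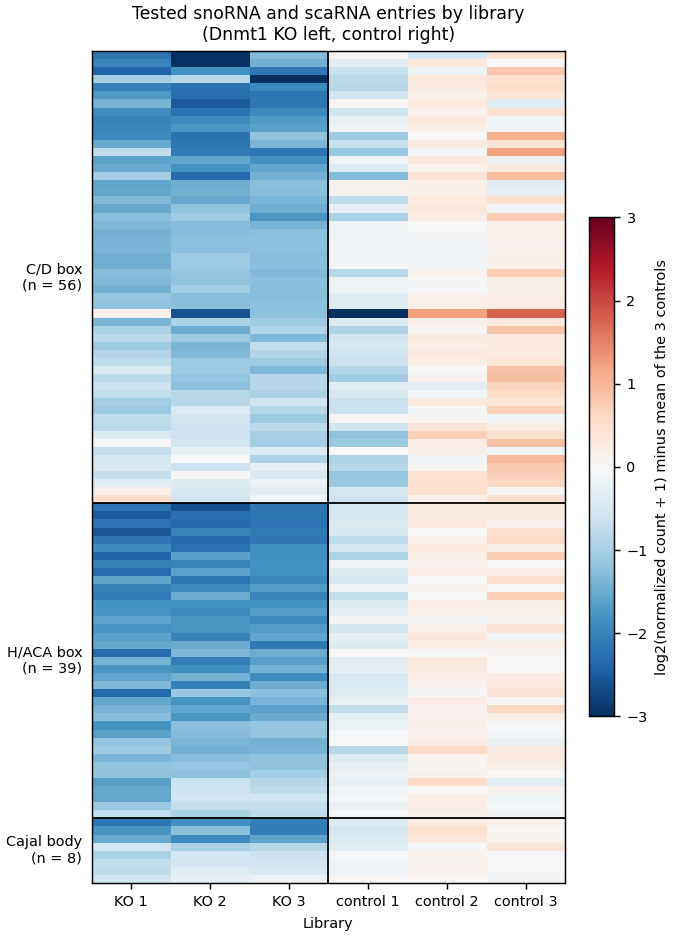
Each row is 1 of the 103 tested entries and each column 1 library, with the 3 Dnmt1 KO libraries left and the 3 control libraries right. Colour gives log2(normalized count + 1) minus the mean of the 3 control libraries, and rows are sorted by fold change within C/D (n = 56), H/ACA (n = 39) and Cajal body (n = 8) entries. KO columns are blue in nearly every row, and control replicate 1 is the bluest of the controls in most rows, being the lowest control library for 84 of the 103 entries.

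Of the 64 entries that were not tested, 21 (all of them C/D) had no read in any library, and 43 had some. Summed over the 64, they came to 99.1, 83.2 and 84.4 normalized counts in KO libraries, against 87.7, 203 and 282 in control libraries. Here control replicate 1 lay within the KO range, so that the groups overlapped. Over all 146 entries with a read, the mean was lower in KO for 140.

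The C/D member Snord22 (U22) had the highest level per length of any single tested entry in control cells. In Xenopus oocytes this RNA is needed for processing of the small subunit ribosomal RNA. U3, divided over several entries, had a larger sum, with a control mean of 18986 normalized counts against 4573 for Snord22. The level of Snord22 was 989.9 in KO and 3629.6 in control cells, in normalized counts per 100 nucleotides. By library it had 1133, 1211 and 1398 normalized counts in KO, against 3839, 5596 and 4286 in control, with a log2 fold change of -1.86 (SE 0.12, limma adjusted p = 2.77e-07). Snord15b and Snord15a, both carried by Rps3, came next per length among single entries in control cells. Snord15b had 1351, 1463 and 1598 normalized counts in KO libraries, against 4183, 4443 and 3193 in control libraries (log2 fold change -1.41, SE 0.11, limma adjusted p = 1.18e-06). Snord15a, at 731, 796 and 916 in KO against 2398, 2508 and 1771 in control, fell by 1.44 on the log2 scale (SE 0.12). The lowest control value stood above the highest KO value by a wide margin for both, and the pair differed from each other in fold change by 0.03.

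U3 and U8, C/D snoRNAs known for a part in processing of the ribosomal RNA precursor, were lower as well, apart from a pseudogene entry of U3. Snord13, given with them, was also lower. U3 (Snord3), the core RNA of the particle that assembles on the small subunit precursor, is listed as 13 entries, of which the 4 copies Snord3b1 to Snord3b4 lie near each other inside Tex14 on chromosome 11 and have the same sequence. How reads were divided among them is uncertain, so their sum is the sounder value. Summed U3 came to 7349, 8180 and 7828 normalized counts in KO libraries, against 17149, 18582 and 21228 in control libraries, a KO to control ratio of 0.410. The 10 tested entries named Snord3a or Snord3b1 to Snord3b4 were each lower, with log2 fold changes between -1.35 and -1.24. The pseudogene entry Snord3b-ps2 had 18.6, 1.94 and 6.66 in KO and 1.23, 40.7 and 60.1 in control, overlapping groups that did not pass the test (limma adjusted p = 0.445), but without control replicate 1 its log2 fold change was -2.73 (adjusted p = 0.0098). U8 (Snord118), needed in Xenopus for maturation of the large subunit ribosomal RNAs, had 170.4, 135 and 164 in KO, against 414, 684 and 856 in control (log2 fold change -2.00, SE 0.20, limma adjusted p = 1.63e-05). Snord13, which guides an acetylation on the small subunit ribosomal RNA in human cells, was low throughout, at 9.29, 11.6 and 9.62 in KO and 23.5, 35.9 and 26.7 in control (log2 fold change -1.39, SE 0.33, limma adjusted p = 0.0102, and 0.0522 without control replicate 2).

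U17 (Snora73a and Snora73b, both in Snhg3) is the H/ACA RNA of precursor cleavage, known from its yeast counterpart, and its entries had smaller fold changes than all but 1 of the other tested H/ACA entries. Its entries summed to 273, 436 and 438 normalized counts in KO libraries, against 619, 794 and 631 in control libraries, a ratio of 0.561. Snora73a had a log2 fold change of -0.82 (SE 0.14, limma adjusted p = 0.00124) and Snora73b of -0.89 (SE 0.21, limma adjusted p = 0.00995). The call of Snora73b was lost with DESeq2 (adjusted p = 0.0520) and with robust limma (adjusted p = 0.0773). KO replicate 1 was the lowest library for both.

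U14 (Snord14), essential in yeast for the small subunit ribosomal RNA, gives 3 tested copies in Hspa8, the sequences of which are printed above. Snord14c and Snord14d differ at 2 of 86 positions, so reads may have moved between them. Snord14d had 65.1, 87.1 and 79.9 normalized counts in KO, against 125, 189 and 207 in control (log2 fold change -1.13, SE 0.19, limma adjusted p = 0.00111). Snord14c had 62.0, 71.6 and 86.6 in KO and 80.3, 159.9 and 165 in control, where control replicate 1 fell inside the KO range (log2 fold change -0.81, SE 0.25, limma adjusted p = 0.0351). Its adjusted p exceeded 0.05 when reads were scaled by the library total (0.0785) and when any of KO replicate 1, KO replicate 2, control replicate 2 or control replicate 3 was left out (0.0989 to 0.123). Snord14e, 90 nucleotides long and the least abundant of the 3, had 4.13, 6.77 and 5.18 in KO, against 16.1, 23.7 and 46.8 in control (log2 fold change -2.12, SE 0.45, limma adjusted p = 0.00506). The KO values of Snord14e rest on few reads each. With a mean of 5.36 in KO and 28.8 in control, it passed the filter through the control libraries.

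Among the C/D members with a mean of at least 50 normalized counts, Snord35a in Rpl13a and Snord94 in Ptcd3 were also among the largest losses. Snord35a had 50.6, 33.9 and 36.3 normalized counts in KO, against 112, 184 and 223 in control (log2 fold change -2.04, SE 0.24, limma adjusted p = 6.36e-05). Snord94 had 64.0, 74.5 and 79.9 in KO, against 236, 284 and 236 in control (log2 fold change -1.78, SE 0.14, limma adjusted p = 1.53e-06). Of the imprinted families, Snord116, whose loss is linked to Prader-Willi syndrome in humans and which is carried by Snhg14 on the paternal chromosome, had 17 entries. Of these, 14 have a sequence that another annotated gene shares and were at 0 in all libraries. Whether reads of those copies were left unassigned was not tested. Snord116l12, with a sequence of its own, had 26.9, 23.2 and 28.9 in KO, against 63.0, 137 and 166 in control (log2 fold change -2.06, SE 0.30, limma adjusted p = 0.000375). Snord116l9 had 3.10, 0.968 and 6.66 in KO, against 18.5, 12.3 and 24.5 in control (log2 fold change -2.25, SE 0.57, limma adjusted p = 0.0143), with 1 to 9 reads per KO library. Its mean was 3.58 in KO and 18.4 in control, so that it passed the filter through the control libraries. KO replicates 1 and 2 lay no higher than the 3.10 and 2.90 normalized counts that a count of 0 allows there. The single entries of Snord64 and Snord107 had no read.

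**Figure D2:**
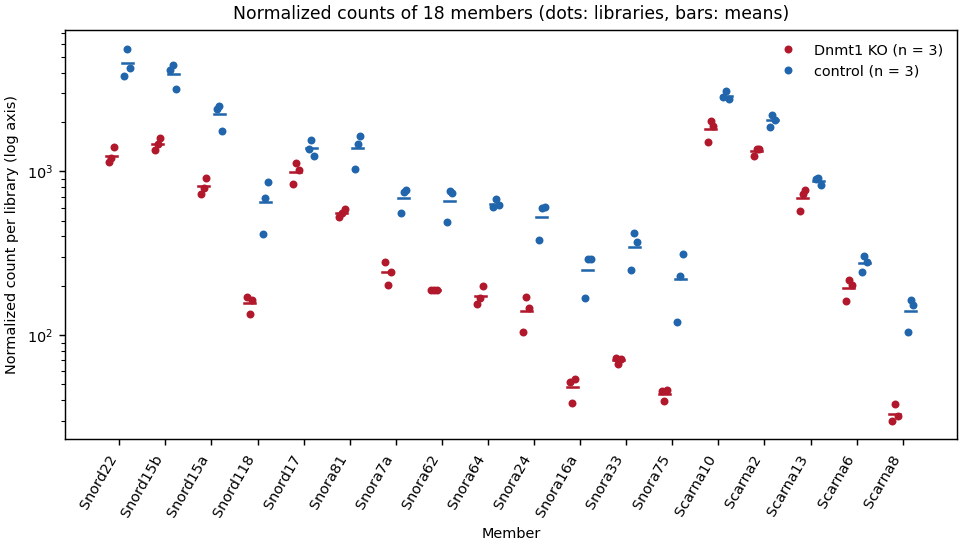
Normalized counts of 18 members on a log axis, with 1 dot per library, a bar at the mean, and Dnmt1 KO (n = 3) left of control (n = 3). The 3 KO libraries lie below the 3 control libraries for each of the 18, with wide gaps on the log axis for Snora16a, Snora33 and Snora64 and the narrowest for Scarna13 and Snord17.

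H/ACA members showed the most uniform change. All 39 tested entries had KO below control in every library, and the interquartile range of their log2 fold changes was -1.89 to -1.35, against -1.63 to -0.89 for C/D entries. The entry that missed the threshold was Snora9 in Snhg15, with 9.29, 19.4 and 17.0 normalized counts in KO and 25.9, 46.4 and 24.5 in control (log2 fold change -1.04, SE 0.37, limma adjusted p = 0.0659). It is outside the rule for named genes and is given as the sole exception. Most of these RNAs guide pseudouridines in ribosomal RNA. Snora81, carried by Eif4a2, was the most abundant H/ACA member per length, at 314 in KO and 777 in control cells in normalized counts per 100 nucleotides. By library it had 528, 558 and 590.0 in KO, against 1030, 1464 and 1654 in control (log2 fold change -1.28, SE 0.13, limma adjusted p = 2.21e-05). Snora7a in Rpl32 had 281, 203 and 244 in KO, against 554, 744 and 773 in control (log2 fold change -1.50, SE 0.14). Snora62 in Rpsa had 188, 188 and 187 in KO, against 491, 759.7 and 737 in control, a change of -1.79 (SE 0.14) on the log2 scale.

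Among H/ACA members with a mean of at least 50 normalized counts, the largest losses were those of Snora16a, Snora33 and Snora75. Snora16a in Snhg12 is listed as overlapping entries of 136 and 137 nucleotides, which summed to 91.9, 86.1 and 104 normalized counts in KO, against 328, 565 and 575 in control, a ratio of 0.192. Their log2 fold changes were -2.33 (SE 0.21) and -2.31 (SE 0.21), with limma adjusted p of 6.54e-06 and 5.58e-06. Snora33 in Rps12 had 72.3, 66.8 and 71.8 in KO, against 249, 417 and 371 in control (log2 fold change -2.25, SE 0.17, limma adjusted p = 1.12e-06). Snora75 in Ncl had 45.4, 39.7 and 45.9 in KO, against 121, 228 and 311 in control (log2 fold change -2.21, SE 0.27, limma adjusted p = 7.16e-05). On the log2 scale Snora30 in Gm42715 changed by -1.99 (SE 0.21) and Snora24 in Snhg8, named for its abundance, by -1.91 (SE 0.19). Snora64 in Rps2 had the smallest standard error among these, with 155, 167 and 198 in KO, against 603, 680.2 and 625 in control (log2 fold change -1.87, SE 0.11, limma adjusted p = 1.56e-07). Snora23 in Ipo7, at 209, 217 and 211 in KO and 407, 511 and 554 in control, changed by -1.19 (SE 0.11).

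Among the tested Cajal body RNAs, the 4 over 250 nucleotides had the smallest fold changes. Scarna10, which in human cells guides modification of the U5 small nuclear RNA, had 1514, 2018 and 1893 normalized counts in KO, against 2835, 3111 and 2761 in control (log2 fold change -0.69, SE 0.09, limma adjusted p = 0.000211). Scarna2, a guide for the U2 small nuclear RNA in human cells, had 1244, 1375 and 1369 in KO, against 1868, 2219 and 2061 in control (log2 fold change -0.62, SE 0.08, limma adjusted p = 7.62e-05). Both exceed 300 nucleotides in length, at 325 for Scarna10 and 414 for Scarna2. Scarna6 (265 nucleotides) had 162, 216 and 202 in KO, against 244, 306 and 281 in control (log2 fold change -0.52, SE 0.13, limma adjusted p = 0.0130). Scarna13 (275 nucleotides) had 574, 728 and 771 in KO, against 891, 907 and 825 in control (log2 fold change -0.35, SE 0.10, limma adjusted p = 0.0279), the smallest change called in any class. The calls of Scarna6 and Scarna13 did not hold when reads were scaled by the library total (adjusted p = 0.118 for Scarna6 and 0.505 for Scarna13), nor without KO replicate 1 (0.0512 for Scarna6 and 0.0881 for Scarna13). That of Scarna13 was also lost without control replicate 1 (0.0595) and without control replicate 2 (0.0675).

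Of the shorter Cajal body RNAs, 3 had clearly larger fold changes than these 4. Scarna17, the shortest tested, had a fold change near that of Scarna10 and did not pass. Scarna8 (131 nucleotides) had 29.9, 37.7 and 31.8 normalized counts in KO, against 104, 163 and 153 in control (log2 fold change -2.02, SE 0.21, limma adjusted p = 1.76e-05). Scarna3a (140 nucleotides) had 132, 98.7 and 124 in KO, against 282, 465 and 408 in control (log2 fold change -1.67, SE 0.17, limma adjusted p = 1.84e-05). The longer entry of Scarna3b (139 nucleotides) had 11.4, 16.5 and 8.88 in KO, against 27.2, 57.7 and 43.4 in control (log2 fold change -1.70, SE 0.35, limma adjusted p = 0.00438). Scarna17 (79 nucleotides) had 14.46, 10.6 and 11.8 in KO and 17.3, 20.8 and 29.0 in control and did not pass the test (log2 fold change -0.79, SE 0.34, limma adjusted p = 0.133).

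**Figure D3:**
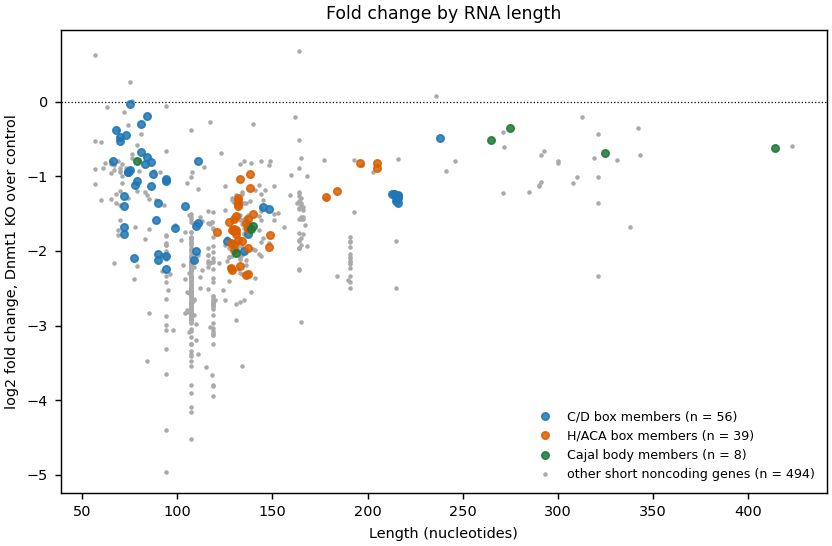
Length in nucleotides (horizontal) against log2 fold change of Dnmt1 KO over control (vertical) for the tested C/D (n = 56), H/ACA (n = 39) and Cajal body (n = 8) entries and, in grey, 494 other tested genes of short noncoding types. Between about 100 and 150 nucleotides the medians of the 3 classes were -1.67, -1.72 and -1.70, members of up to 100 nucleotides spread from -2.25 to -0.04, and members over 250 nucleotides lie between -0.69 and -0.35.

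The size of the change differed with length in all 3 classes. Among members of up to 100 nucleotides, 16 of 34 were lower, and the 33 C/D entries among them had a median log2 fold change of -1.03. Of members of 101 to 150 nucleotides 46 of 48 were lower, and their median log2 fold change was -1.71. Within that range the medians were -1.67 for 11 C/D, -1.72 for 34 H/ACA and -1.70 for 3 Cajal body entries. Members over 150 and up to 250 nucleotides had a median of -1.25, with 16 of 17 lower, and the 4 members over 250 a median of -0.57, with 4 of 4 lower. Of these 17 members, 11 are entries of U3, most of them copies of shared sequence, so that this median rests largely on 1 RNA. The same 11 entries count singly in the C/D correlation given next. The rank correlation of length with log2 fold change had opposite signs in the classes, at -0.34 over 56 C/D entries and 0.45 over 39 H/ACA entries (Spearman's rho across genes of the same 6 libraries, which are no independent replicates). For the share of G and C the same measure was -0.17 in C/D and 0.07 in H/ACA entries, and for mean abundance -0.14 in C/D and 0.02 in H/ACA entries. Over all 103 entries it was -0.07 for length, 0.01 for the share of G and C and -0.02 for mean abundance. Snord17, at 238 nucleotides the longest C/D member and named here after its values were seen, had 839.6, 1118 and 1019 normalized counts in KO, against 1377, 1549 and 1232 in control (log2 fold change -0.49, SE 0.11, limma adjusted p = 0.00609).

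The members that did not pass were mainly short C/D RNAs of low abundance. Of the 21, 18 were at most 100 nucleotides long, their median length was 77, and their median abundance was 21.5 normalized counts, against a median length of 132 and a median abundance of 129.6 for the 82 that were lower. In 15 tested entries, all of the C/D class, the groups overlapped, and in each of the 15 control replicate 1 was the lowest control library. Leaving out control replicate 1 gave 88 lower entries of 102 tested, and leaving out each other library gave 72 to 76.

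The change was not particular to the members, since most other types of short noncoding RNA were lower too. Among tested genes of the annotated type snoRNA that carry other names, 94 of 129 were lower (median -1.58 on the log2 scale), and among scaRNA genes of other names 11 of 13 (median -1.36). Small nuclear RNA genes were lower in 218 of 233 cases (median -2.22), and genes of the type rRNA, of a median length of 119 nucleotides, in 51 of 59 (median -2.61). For the type misc_RNA 16 of 24 were lower (median -1.01), for miRNA genes 6 of 19 (median -1.08), and for mitochondrial transfer RNA genes 5 of 15 (median -0.92). Protein coding genes had a median of 0.04 and long noncoding RNA genes of 0.05. At 101 to 150 nucleotides the other short noncoding genes had a median of -2.22 (285 of 311 lower), below the -1.71 of the members, and at 251 to 450 nucleotides of -0.81 (16 of 24 lower), below the -0.57 of the members. In both the other short noncoding genes and the members, the median was lower at 101 to 150 nucleotides than above 250. Tested genes of the same lengths outside both sets had a median of -0.06 at 101 to 150 nucleotides (1 of 4 lower, 0 higher). Their median was -0.08 over 150 and up to 250 nucleotides (1 of 12 lower, 1 higher). At 251 to 450 nucleotides it was -0.16 (24 of 149 lower, 2 higher). Recovery of RNA by length in each library was not measured, and its part in these differences was not tested.

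**Figure D4:**
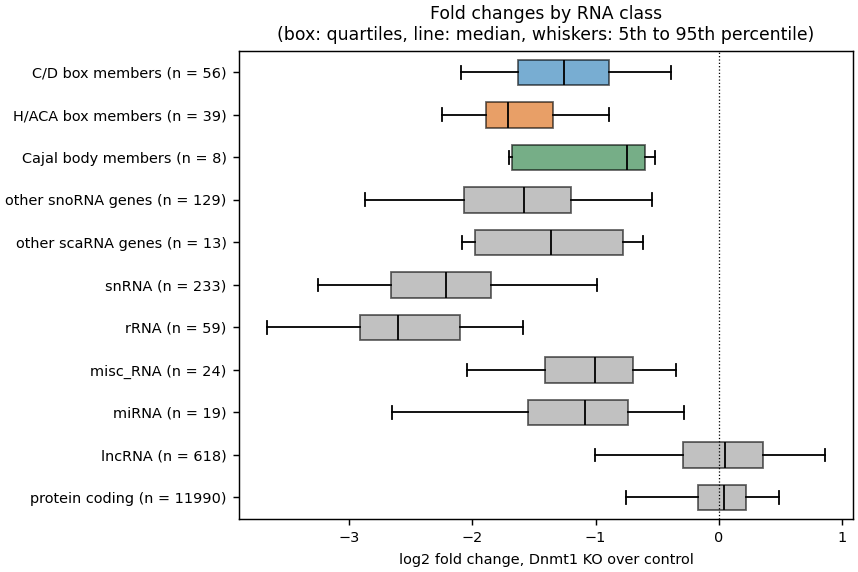
Log2 fold change of Dnmt1 KO over control for tested members of each class (coloured) and for other tested genes by annotated type (grey), with boxes from the lower to the upper quartile, a line at the median and whiskers from the 5th to the 95th percentile. The medians of all plotted short noncoding types lie left of 0, those of snRNA and rRNA genes furthest at -2.22 and -2.61, while lncRNA and protein coding genes centre near 0.

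The host genes, from whose introns most of these RNAs are cut, mostly had smaller fold changes than the RNAs they carry. Of the 84 tested members with a tested host, 83 had a fold change below that of the host, the median difference being -1.44 on the log2 scale, and the median of the 66 hosts was 0.08, with 11 hosts lower and 12 higher, where 11.6% of all tested genes were lower and 7.64% higher. Of the members that were lower, 45 lay in a host that did not pass the test, 10 in a host that was higher and 9 in a host that was lower (Snhg1, the host of Snord22, for example, at -1.55). The exception was Scarna13, at -0.35 in Snhg10 at -0.90. Many members, Snord22 and Scarna13 among them, overlap an exon of a host transcript. How reads in such overlaps were divided between member and host was not tested. Members in protein coding hosts and in long noncoding hosts had medians of -1.38 (57 of 70 lower) and -1.36 (25 of 33 lower). Hosts were assigned by position alone, and whether each member is cut from its host was not tested. The 70 include Snord3b1 to Snord3b4 in Tex14, which averaged only 2.11 normalized counts in KO and 0.687 in control. They also include Snord118 in Tmem107, which averaged 11.3 in KO and 7.33 in control.

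**Figure D5:**
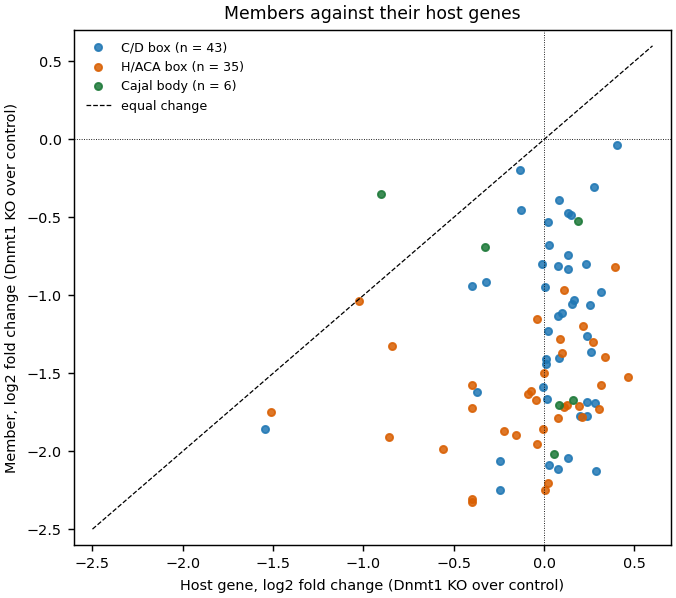
Log2 fold change (Dnmt1 KO over control) of the host gene (horizontal) and of the member it carries (vertical) for 43 C/D, 35 H/ACA and 6 Cajal body entries with a tested host. Points under the dashed line changed further down than their host, which held for 83 of the 84, while most hosts lie near 0.

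Members carried by 1 host did not change by 1 amount. In Ncl, Snora75 changed by -2.21, while Snord82, printed above and 70 nucleotides long, had 38.2, 26.1 and 18.5 normalized counts in KO and 17.3, 45.4 and 72.4 in control (log2 fold change -0.53, SE 0.44, limma adjusted p = 0.439). In Rps12, Snora33 changed by -2.25, while Snord100, 74 nucleotides long, had 36.1, 23.2 and 19.2 in KO and 27.2, 49.2 and 91.3 in control (log2 fold change -0.95, SE 0.38, limma adjusted p = 0.106). In Snhg12 the H/ACA members Snora16a, Snora44 and Snora61 changed by between -2.33 and -1.58 and passed the test, while the C/D member Snord99 had a log2 fold change of -0.94 (SE 0.36, limma adjusted p = 0.0915). In these 3 hosts, the only ones with tested members of both classes, the H/ACA fold change was the lower. Control replicate 1 was within or below the KO range for each of the 3 C/D members. The C/D members there are 70 to 74 nucleotides long and the H/ACA members 129 to 137, so that class and length cannot be told apart. Whether the differences between members of a host exceed the spread between libraries was not tested. In Rpl13a, the 4 tested C/D members ranged from -2.04 (Snord35a) to -0.47 (Snord34, which did not pass, adjusted p = 0.467 in limma). In Rps3, Snhg3 and Snhg14 the members carried by 1 host lay within 0.18 of each other. These RNAs were named for their hosts after their values were seen, apart from those the rule names.

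No shift of the size seen in the RNAs was measured for the messenger RNAs of their protein partners. None of the 4 C/D core proteins (Fbl, Nop56, Nop58, Snu13) or the 4 H/ACA core proteins (Dkc1, Nop10, Nhp2, Gar1) passed the limma test, in either direction. Fbl, the methyltransferase fibrillarin, averaged 274 ± 31 normalized counts in KO and 286 ± 22 in control libraries, and Dkc1, the pseudouridine synthase dyskerin, 159.8 ± 12 in KO and 178 ± 15 in control libraries (SD, n = 3 each). The log2 fold changes of the 8 ran from -0.16 (Dkc1) to 0.27 (Nhp2). Of all 25 genes on the list, 2 were higher and 1 was lower, where 7.64% of all tested genes were higher and 11.6% lower, so that these counts do not set the list apart. Tgs1, the enzyme that trimethylates the cap of U3 and other capped small RNAs, had 518, 472 and 477 in KO, against 323, 365 and 364 in control (log2 fold change 0.48, SE 0.09, limma adjusted p = 0.00189). Rpap3, a subunit of the chaperone complex that assembles the particles, was at 239, 222 and 230.2 in KO, against 169, 201 and 174 in control (log2 fold change 0.35, SE 0.11, limma adjusted p = 0.0422). Tent4b, a poly(A) polymerase that tags RNA ends for trimming, had 449, 429 and 420.5 in KO, against 616, 541 and 557 in control (log2 fold change -0.40, SE 0.08, limma adjusted p = 0.00414). Smn1, which brings small nuclear particles to the Cajal body, had a log2 fold change of 0.33 (limma adjusted p = 0.0701), Nufip1 of 0.35 (0.176) and Nolc1 of -0.14 (0.179).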

How the data were processed

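Total RNA from sorted cells was depleted of ribosomal RNA and made into stranded low-input libraries after purification on columns. The processing notes list Salmon 1.10.3, STAR 2.7.11b, Trim Galore 0.6.10 and DESeq2 1.42.1 with GRCm39. The methods give partly different versions, and the annotation releases that the study lists are not tied to this table. The deposited signal is the authors' normalized count, a gene's count divided by a DESeq2 size factor. All values were whole multiples of a step per library (100% within 0.001), so reads were recovered. The authors' own fold changes and p-values were not used.

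Genes with a mean of at least 10 were fitted as log2(normalized count + 1) with limma 3.58.1 (trend, group only, two-sided, Benjamini-Hochberg, threshold 0.05) in R 4.3.3, and fold changes on this scale understate those of low genes. The fit was tested on simulated data. edgeR 4.0.16 and DESeq2 1.42.0 on recovered reads, other scalings, filters and pseudocounts, a replicate block and left-out libraries were alternatives. Positions, hosts (the smallest gene on the same strand containing the member, protein coding or long noncoding) and sequences were taken from the GENCODE M39 annotation of GRCm39, where each of the 167 entries matched. Named genes followed a rule: tested Cajal body RNAs, the 6 most abundant and the 5 largest called losses with a mean of at least 50 per class, RNAs of ribosomal RNA processing, imprinted families, core proteins and the 6 listed proteins with the smallest p. Members and lists were chosen with earlier results of these data known. Libraries of a group differed beyond counting noise (chi-square per gene 3.45 to 12.8). Whether reads of host introns were counted to members was not tested.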

Additional observations from a re-analysis of the deposited data

How the results depend on the processing

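The count of lower members (82) stayed within 61 to 88 in every alternative, and no member was higher in any. It was 84 with edgeR, 85 with DESeq2, 81 with limma-voom, 80 with robust eBayes, 76 of 102 with total-read scaling, 61 of 62 with a mean of at least 50, and 73 of 94 with entries of one locus or sequence summed, an alternative chosen after seeing the data. Leaving out 1 library gave 72 to 88, and class medians of -1.37 to -1.06 (C/D), -1.86 to -1.55 (H/ACA) and -0.83 to -0.67 (Cajal body). Scaling by total reads moved the median of all genes to 0.28, and moved the medians of H/ACA members to -1.45 and of Cajal body members to -0.49; relative to all genes they were -1.73 and -0.77. The library numbers did not pair the samples (correlations of deviations from -0.03 to 0.06), and a replicate block gave 80 lower members and medians of -1.26, -1.71 and -0.74. Of 898 values of named members under the alternatives, 883 kept their direction and side of the threshold, 14 lost the call, 1 gained it and 0 turned round. The losses were those of Scarna13, Scarna6, Snord14c, Snord13 (without control replicate 2, adjusted p = 0.0522) and Snora73b (DESeq2, 0.0520). The cause was not tested. Of the C/D entries 21 had no read in any library, 14 of them Snord116 copies of shared sequence.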
